A study of Mus musculus with 2 samples.

Results

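The GENCODE M21 annotation of the mouse holds 199 miRNA genes named Mir6896 to Mir7093, 3 of them with a letter suffix (Mir6973a, Mir6973b and Mir7036b), among 2202 miRNA genes in all. The genes were taken by name alone, but that choice was made with earlier results of these data known. Of the 198 numbers in that range 197 are used, and Mir6967 has no gene. They lie on 20 chromosomes. Their reads were counted in microRNA sequencing libraries of the gastrocnemius, a calf muscle, from female B6CASTF1/J mice aged 10 days, the offspring of C57BL/6 and CAST parents. No treatment is named, and the 2 libraries, biological replicates 1 and 2, form 1 group. The labels number the females differently but give both the same donor entry, and nothing else states that they are separate animals, so the spread between them may be partly technical.

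MicroRNA names are numbered in the order of their registration, so these high numbers belong to genes that entered the databases late. A usual miRNA hairpin is cut from a longer transcript by the nuclease Drosha. A mirtron is instead a short intron that folds into a hairpin once the spliceosome has released it and its lariat has been opened, and Dicer then cuts it into a 5p and a 3p arm. In a tailed mirtron only one end of the hairpin is an end of the intron, and the extra intron sequence is trimmed away. Introns begin with GU at the splice donor and end with AG at the splice acceptor, after a stretch rich in C and U, so the 3p arm of a mirtron carries those letters. Mirtron arms are generally known at low levels in mammalian tissues.

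By position, nearly all of these genes were mirtron-like hairpins in host genes. Every one of the 199 lay inside a protein-coding gene on the same strand, and 203 different host genes were involved because 10 hairpins had more than 1 host. Measured against the shortest intron that holds it, the 3' end of the hairpin fell within 5 bases of the splice acceptor in 185 of 199 genes (93.0%), and on the last base of the intron in 184. Among the 2003 other miRNA genes this held for 43 (2.15%). It held for 3 of 514 genes (0.584%) named Mir1 to Mir999, for 3 of 154 (1.95%) named Mir5000 to Mir6895, and for 15 of 117 (12.8%) named Mir7094 and above. Because 770 of the other genes lie in a protein-coding host at all, the 39 of these at an acceptor are the closer comparison.

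**Figure D1:**
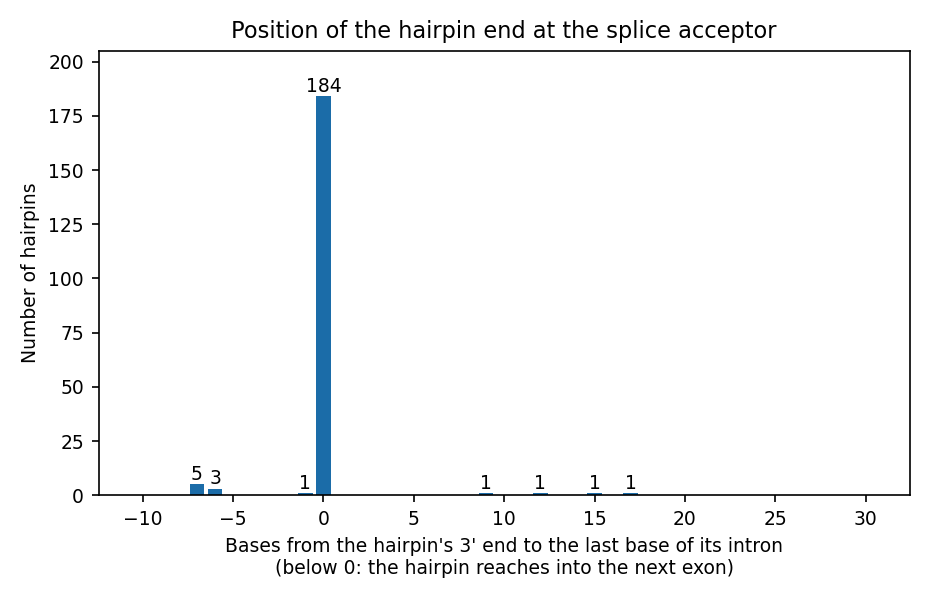
Number of hairpins (y axis) by the distance in bases from the hairpin's 3' end to the last base of the shortest intron that holds it (x axis), with the number above each bar. The bar at 0 holds 184 hairpins. Mir7025, which no intron holds, and Mir7036b, which ends 23955 bases from the acceptor, are not drawn.

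A whole intron, from donor to acceptor, made up the hairpin in 15 genes, while 170 had the acceptor end only and 4 the donor end only. The introns that held the hairpins ran from 66 to 36269 bases with a median of 472, and the hairpins from 52 to 137 bases with a median of 66. Most hairpins thus sat at the far end of an intron much longer than themselves. The 10 without an end at a splice site of that intron were Mir6901, Mir6903, Mir6904, Mir6914, Mir6925, Mir6950, Mir7025, Mir7029, Mir7036b and Mir7051. All of these but Mir7025, Mir7036b and Mir7051 cross the acceptor and end 6 or 7 bases past it, in the next exon. Mir7051 does end at the acceptor of another annotated intron that holds it. In 159 genes the hairpin was intronic in every host transcript that spans it. The other 40 overlapped an exon of some transcript, 14 of them a coding sequence, among them Mir7025 in Pdgfra, a growth factor receptor gene, and 6 a UTR of a coding transcript.

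The hairpins of 4 of the genes are shown because they carry the geometry, from the RefSeq table of build GRCm38.p6, 5' to 3', with the intron's terminal AG in capitals. Where the hairpin is the whole intron, its first GU is in capitals too. Mir6944 lies at chr13:55477681-55477776 on the minus strand in Dbn1, Mir7018 at chr4:137538286-137538370 on the plus strand in Hspg2, Mir7091 at chrX:74274027-74274105 on the minus strand in Dnase1l1, and Mir7083 at chr9:21809941-21810000 on the minus strand in Dock6.
Mir6944: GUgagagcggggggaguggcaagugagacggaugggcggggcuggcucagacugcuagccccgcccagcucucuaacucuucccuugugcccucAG
Mir7018: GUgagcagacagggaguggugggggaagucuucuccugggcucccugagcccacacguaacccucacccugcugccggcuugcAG
Mir7091: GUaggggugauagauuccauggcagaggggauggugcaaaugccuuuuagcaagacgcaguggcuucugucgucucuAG
Mir7083: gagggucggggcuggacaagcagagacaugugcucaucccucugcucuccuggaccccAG
The first 3 of these open with GU and close with AG. Mir7083 has the AG alone and leaves 1773 bases of its intron upstream.

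The mature arms of the 12 genes with the most reads in both libraries together (ties in order of symbol) follow, with the seed, bases 2 to 8, in capitals. The seed is the stretch that pairs with target messengers. RefSeq entries were found for 183 of the 199 genes, with 175 arms of each side, and the 178 hairpins among them had the same coordinates and letters as the GENCODE genes.
mmu-miR-6944-5p: gUGAGAGCggggggaguggcaag
mmu-miR-6944-3p: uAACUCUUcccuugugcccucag
mmu-miR-6945-5p: uCCUGGGAggggcagccccugg
mmu-miR-6945-3p: uCUGAGCUcugcccuucccau
mmu-miR-7018-5p: gUGAGCAGacagggaguggugggg
mmu-miR-7018-3p: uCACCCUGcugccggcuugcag
mmu-miR-7083-5p: uCGGGGCUggacaagcagaga
mmu-miR-7083-3p: uCUGCUCUccuggaccccag
mmu-miR-6900-5p: uGCCAGGAgaagccuagagccguc
mmu-miR-6900-3p: uGGUGAUGggcucucuuguag
mmu-miR-6994-5p: aCAAAGGUgggugaagccgguga
mmu-miR-6994-3p: aACGAUCUucuccgucuuugc
mmu-miR-7021-5p: aUAGGAGUugauuacagagcaa
mmu-miR-7021-3p: uCUCUGUGcuucugcuccuuag
mmu-miR-7091-5p: gUAGGGGUgauagauuccauggc
mmu-miR-7091-3p: aGUGGCUUcugucgucucuag
mmu-miR-7051-5p: uCACCAGGaggaaguuggguca
mmu-miR-7051-3p: uGAGCCACugauuccugugugc
mmu-miR-6929-5p: aGGGAGGAgcagcaucuguga
mmu-miR-6929-3p: cAGGUGCUgucuucuucuuccag
mmu-miR-7019-5p: aUCUGGGAggggcugucaggagu
mmu-miR-7019-3p: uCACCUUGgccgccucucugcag
mmu-miR-6976-5p: cAGGGAAGuugagaggaaaauug
mmu-miR-6976-3p: aUCUCCCUcccaacuccccag
The 5p arms of Mir6944, Mir7018 and Mir7091 start with GU, the first bases of their introns. Of the 24 arms, 9 of the 3p arms end on the last base of the intron, and those of Mir6945 and Mir6994 stop 2 bases before it. The 3p arm of Mir7051 stops 11 bases before the end of its shortest intron.

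Over the whole set, the 3p arms carried the letters of an intron end. Of the 175 3p arms, 135 ended on the last base of the intron and 162 within 2 bases of it. The letters AG closed 137 of them (78.3%), against 61 of 556 3p arms of other miRNAs (11.0%). C and U made up a median of 72% of a 3p arm here and 54.5% elsewhere, and G a median of 44% of a 5p arm here and 27.3% elsewhere. The GC content of the hairpins had a median of 57.4%, against 50% for the others. Folding with RNAfold gave a median minimum free energy of -38.9 kcal/mol per 100 bases, and -36.5 for the others. The order depended on the comparison, since the median of genes named Mir1 to Mir999 was lower, at -41.8. Among genes with a read it was -39.2 here and -43.0 for the others.

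Within the set, seeds were mostly private to a gene. The arms held 322 distinct seeds, of which 24 were shared by 2 or more of the genes and none by more than 3. One of the groups of 3 had the seed CACCCUG, in the 3p arms of Mir7018, Mir7023 and Mir7068, genes whose counts summed to 35 reads, 32 of them on Mir7018. The seed CUGAGCU was common to the 3p arms of Mir6945 and Mir6927, and UCUGGGA to the 5p arms of Mir7019 and Mir6907. Matches to miRNAs outside the set are given for the arms printed above only. There, the 5p arm of Mir6945 has the seed of miR-3474, and that of Mir7083 the seed of miR-12197-3p. Counts are per gene, so it was not measured which arm any read came from.

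Reads on the set were sparse. Of 3510897 sense reads on miRNA genes in replicate 1, 433 fell on these genes, and of 3949733 in replicate 2, 385 did. That is 0.0123% (Wilson 95% interval 0.0112 to 0.0136) and 0.00975% (0.00882 to 0.0108), or 0.0110% ± 0.00183 (SD, n = 2). Intervals here and below cover counting error only. They take each read as independent, which could not be checked since the reads carry no molecular identifiers. Levels are counts per 1e6 sense reads on miRNA genes (CPM), in which 1 read is worth 0.285 CPM in replicate 1 and 0.253 in replicate 2. A count of 0 allows up to 3 reads, which is 0.854 and 0.760 CPM.

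At least 1 read was counted on 128 of the 199 genes (64.3%), 92 in replicate 1 and 105 in replicate 2. Both libraries had a read on 69, which is 75% of the first list and 65.7% of the second. No gene seen in only 1 library had more than 6 reads there, the number counted on Mir6997 in replicate 1. A single read in both libraries together was all that 34 genes had, and 75 had 2 to 9. The 19 genes with 10 or more held 491 of the 818 reads (60.0%), and Mir6944 alone held 20.0%. The remaining 71 genes had none, which at this depth limits their level and does not show that they are silent.

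**Figure D2:**
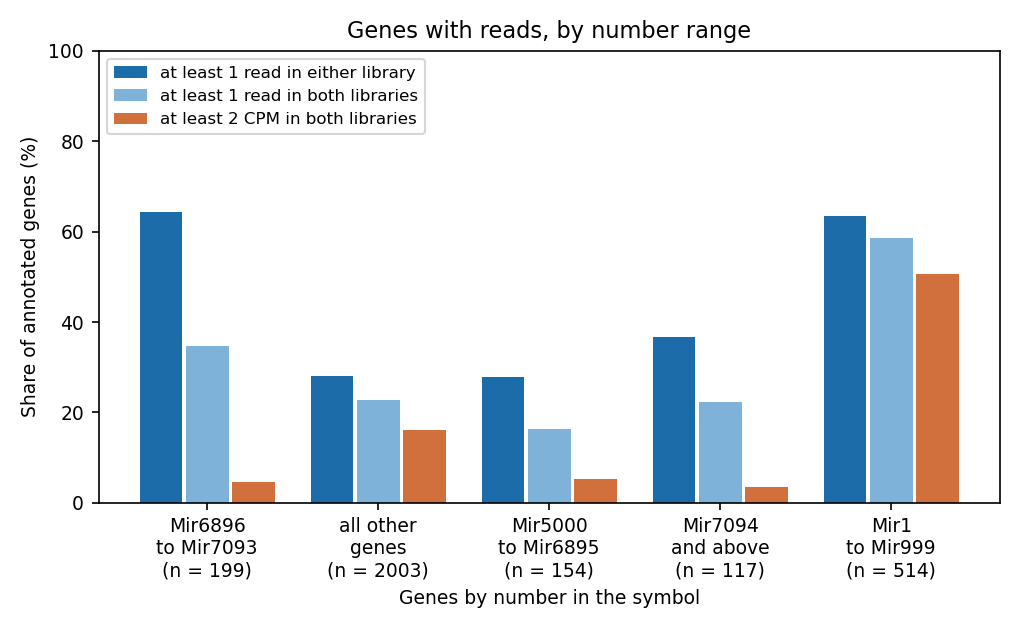
Percent of genes (y axis) with at least 1 sense read in either library, with a read in both, and with 2 CPM or more in both, for the 199 genes and for other ranges of miRNA names (x axis). The first and last bars are at 64.3% and 4.52% for Mir6896 to Mir7093, and at 63.4% and 50.6% for Mir1 to Mir999.

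Set beside other ranges of names, these genes were read often but at low level. Some read was counted on 43 of 154 genes (27.9%) named Mir5000 to Mir6895, on 43 of 117 (36.8%) named Mir7094 and above, and on 326 of 514 (63.4%) named Mir1 to Mir999. A level of 2 CPM in both libraries was reached by 9 of the 199 genes (4.52%), by 8 (5.19%) and 4 (3.42%) in the neighbouring ranges, and by 260 (50.6%) of Mir1 to Mir999. Over all 2202 miRNA genes, 691 (31.4%) had a read and 332 (15.1%) reached 2 CPM in both libraries. Of the 43 genes outside the set with a hairpin end at a splice acceptor, 28 (65.1%) had a read. That share is close to the 64.3% here, so it was not particular to this range of names. Of those 43 genes, 10 (23.3%) reached 2 CPM in both libraries. The median gene had 1 read here and 25 reads in Mir1 to Mir999. Reads that align to several places were not counted on any gene. Only 2 of the 199, Mir6970 and Mir7065, share a 22-base window with another annotated precursor, and both had 0 reads. Restricted to genes with no such window, the shares with a read were 65.0% here, 28.6% for Mir5000 to Mir6895, 39.4% for Mir7094 and above and 75.7% for Mir1 to Mir999. These are descriptions of annotated sets, with no test between them.

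The most abundant gene was Mir6944 (ENSMUSG00000098341.1), the whole 96-base intron of Dbn1, which encodes the actin-binding protein drebrin. It had 87 reads in replicate 1 and 77 in replicate 2, or 22.1 ± 3.74 CPM (SD, n = 2). Its ratio of replicate 2 to replicate 1 was 0.787 with an exact 95% interval of 0.571 to 1.08. Among all 2202 miRNA genes it ranked 233. Its hairpin, printed above, has a predicted folding energy of -55.8 kcal/mol.

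Next was Mir6945 (ENSMUSG00000099096.1) at chr13:55507625-55507692 on the minus strand, at the acceptor end of a 239-base intron of Pdlim7, whose product binds the actin cytoskeleton and is known from muscle. In another transcript of Pdlim7 the hairpin overlaps a UTR. It had 34 reads in replicate 1 and 17 in replicate 2, or 9.68 and 4.30 CPM, and a mean of 6.99 ± 3.80 CPM. Both libraries placed it below Mir6944. The pair lie 29.8 kb apart on chromosome 13, on which Mir6943 in Grk6, with 2 reads in all, lies close as well, so that 3 of the 4 chromosome 13 genes fall within 54.6 kb.

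**Figure D3:**
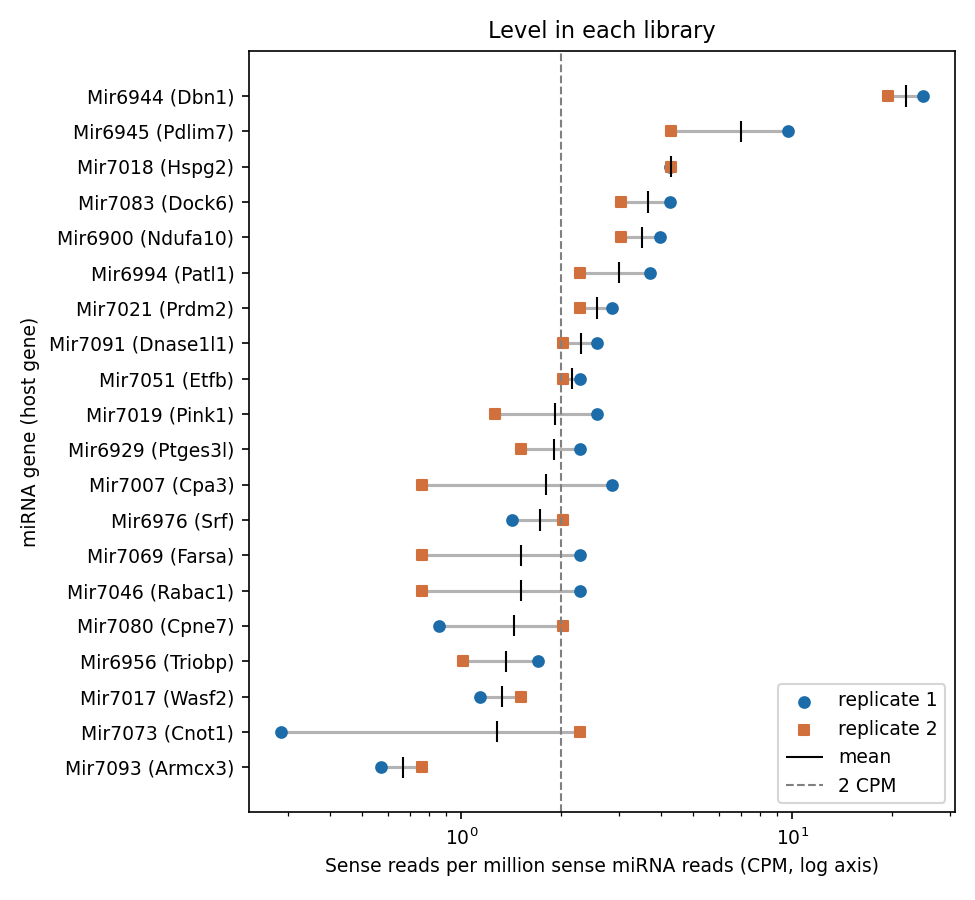
Level of the 20 genes named by rule, in CPM on a log axis, with 1 point for each library and a line for the mean. Mir6944 has both points above those of every other gene, and below Mir6945 the ranges of neighbouring genes meet or overlap.

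After these came Mir7018 (ENSMUSG00000099134.1), the whole 85-base intron of Hspg2, the gene of the basement membrane proteoglycan perlecan, with 15 and 17 reads and 4.29 ± 0.0224 CPM. In replicate 2 its 17 reads equal those of Mir6945. From there down, the range of each gene over the libraries met that of the next, so the order is not resolved. Mir7083 in Dock6, an exchange factor for small GTPases, had 15 and 12 reads (3.66 ± 0.873 CPM). Mir6900 in Ndufa10, a subunit of respiratory complex I, at chr1:92464483-92464542 on the minus strand, had 14 and 12 (3.51 ± 0.671 CPM). Mir6994 in Patl1, which takes part in messenger decay, at chr19:11923728-11923800 on the plus strand, had 13 and 9 (2.99 ± 1.01 CPM).

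The remaining genes at 2 CPM or more in both libraries lay just above that line. Mir7021 in Prdm2, a histone methyltransferase gene, at chr4:143136100-143136162 on the minus strand, had 10 and 9 reads (2.56 ± 0.403 CPM). Mir7091, the whole 79-base intron of Dnase1l1, a nuclease gene, had 9 and 8 (2.29 ± 0.380 CPM). Mir7051 had 8 in each (2.15 ± 0.179 CPM) and lies in Etfb, a mitochondrial electron carrier subunit, at chr7:43457497-43457569 on the plus strand. Its hairpin stops 9 bases short of the acceptor of its shortest intron, and on the acceptor of another annotated intron. Just under the line, Mir6929 had 8 and 6 reads and Mir7019 had 9 and 5, each above 2 CPM in replicate 1 only.

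The other genes with at least 10 reads were uneven between the libraries or close to the floor. Mir6976 in Srf, a transcription factor of muscle genes, had 5 and 8 reads. Mir7007 in Cpa3, a mast cell protease, had 10 and 3, and Mir7046 in Rabac1 and Mir7069 in Farsa, a subunit of a tRNA synthetase, each had 8 and 3. In the opposite direction, Mir7080 in Cpne7 had 3 and 8, and Mir7073 in Cnot1, the scaffold of the main deadenylase complex, had 1 and 9. Mir6956 in Triobp had 6 and 4, and Mir7017 in Wasf2, an actin regulator, 4 and 6. Mir7093, the last number of the range, in Armcx3 on the X chromosome, had 2 and 3 reads (0.665 ± 0.134 CPM).

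**Figure D4:**
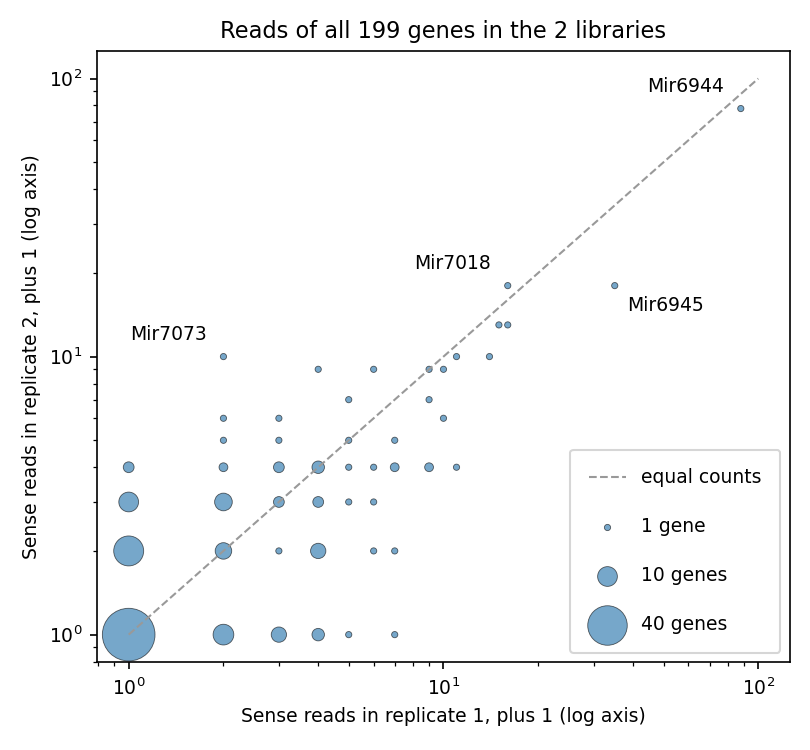
Sense reads plus 1 in replicate 1 (x axis) and in replicate 2 (y axis), both log axes, for all 199 genes, with the area of a circle giving the number of genes at that pair of counts and the dashed line marking equal counts. The 71 genes with no read form the circle at the origin, and Mir6945 with 34 and 17 reads lies below the line.

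The 2 libraries were compared with a two-sided exact binomial test of each gene's counts given the library totals, which compares these libraries and not conditions. Of 395 miRNA genes with at least 10 reads, 28 (7.09%) passed an adjusted p of 0.05 with at least a 2-fold difference. Of the 19 genes of the set that could be tested, 1 passed, Mir6945, so their share is close to that background. With no limit on the fold, Mir6945 was again the 1 of 19 past the adjusted p, against 163 of the 395 genes (41.3%). The counts of the 19 genes ran from 10 to 164 reads, and the part of depth in this difference was not tested. Mir6945 was higher in replicate 1, with a ratio of 0.444 (exact 95% interval 0.233 to 0.818) and a Benjamini-Hochberg adjusted exact p of 0.0184. The test, like the intervals, allows for counting error only and not for other variation between libraries. Mir7007 had an adjusted exact p of 0.102, and Mir7073, with a ratio of 8.00 and an interval of 1.11 to 351, had 0.0559. In CPM, 14 of the 19 were higher in replicate 1 and 5 in replicate 2, beside 213 and 182 of the 395. Their median ratio was 0.762, beside 0.981 over all tested genes. In bulk tissue, fewer cells of a type and less RNA per cell cannot be told apart.

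Whole-intron hairpins held more of the reads than their number. The 15 genes had 132 and 119 of the 433 and 385 reads, but Mir6944 supplied most of these, and the other 14 had 45 and 42. A read was seen on 9 of the 15, on 110 of the 170 genes with the acceptor end only (64.7%), on 1 of 4 with the donor end only and on 8 of 10 with neither. The median count was 4 reads for whole introns, or 3.5 without Mir6944, and 1 for the acceptor class. Besides those named, the whole introns with reads were Mir6923 in Myh3, the embryonic myosin heavy chain gene, with 6 and 3, Mir7070 in Fbxw9 with 3 and 3, Mir6958 in Dennd6b with 4 and 0, and Mir7068 in Cherp with 2 and 1. Mir7082, with 3 and 2 reads, was counted here for an 88-base intron of the overlapping gene model Gm38431, and it also overlaps coding sequence.

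**Figure D5:**
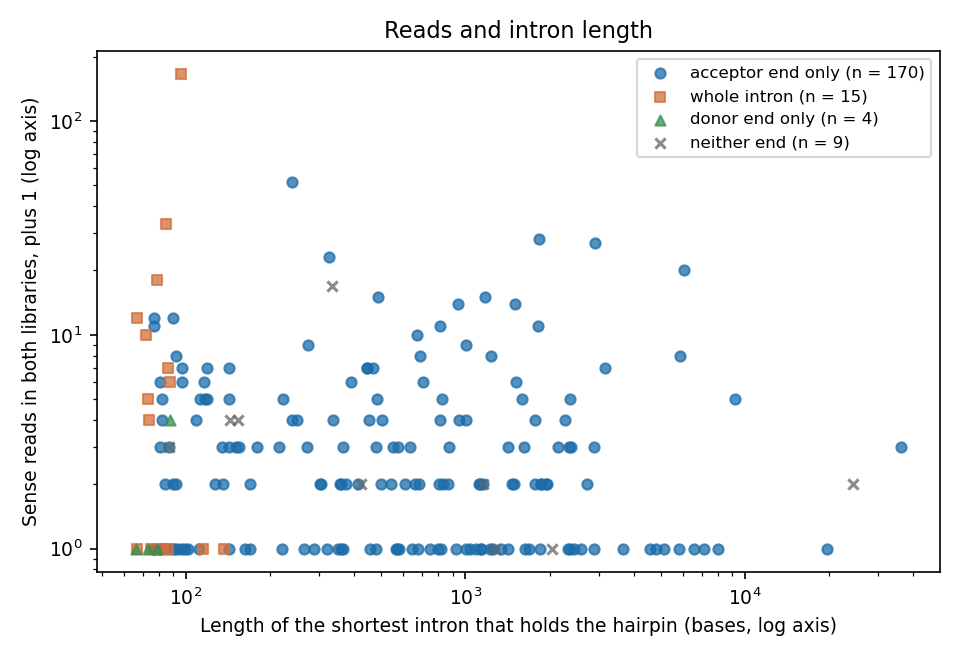
Sense reads in both libraries plus 1 (y axis, log) against the length in bases of the shortest intron that holds the hairpin (x axis, log), with 1 point for each gene and a symbol for which hairpin ends lie at a splice site. Genes with reads occur at all intron lengths, and Mir6944 is the highest point, a whole intron of 96 bases. Mir7025, which no intron holds, is not drawn.

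Hairpins in short introns were read more often in both libraries. In introns of up to 150 bases 28 of 61 (45.9%) had a read in each library, in those over 150 and up to 1000 bases 22 of 72 (30.6%), and in longer ones 18 of 65 (27.7%), with medians of 2, 1.5 and 1 reads. The short introns include the 15 whole-intron hairpins, and these shares were not tested. Shares with a read in either library had another order. Of the 61 in introns of up to 150 bases, 38 had a read (62.3%), as did 52 of 72 (72.2%) in introns over 150 and up to 1000 bases and 37 of 65 (56.9%) in longer ones. Genes that overlap an exon had a read in 29 of 40 cases (72.5%), and intronic ones in 99 of 159 (62.3%). As counts carry no position within a gene, processed arms and other short fragments of host transcripts cannot be told apart, in either kind.

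Hosts were grouped by the tissue or compartment their products are known from, after the values had been seen, and the groups are descriptions only. Not every host was placed in a group. Over the whole set 128 of 199 genes (64.3%) had a read, and no group was tested against that share. The hosts Myh3, Srf and Pdlim7, known from muscle, all had a read on their hairpin, 45 and 28 reads in all. Of these, 34 and 17 were on Mir6945 in Pdlim7. Mitochondrial hosts had reads on 5 of 7, 32 and 27 in all, on Mir6900 in Ndufa10, Mir7051 in Etfb, Mir7019 in Pink1, a mitochondrial kinase gene, Mir6918 in Nipsnap1 and Mir6930 in Slc25a39. Nearly all of these reads were on Mir6900, Mir7051 and Mir7019, with 2 on Mir6918 and 1 on Mir6930. The median over the 7 genes was 2 reads. Of the 5 hairpins with reads, Mir7051 and Mir7019 overlap an exon of some transcript. Extracellular matrix hosts had reads on 3 of 6, nearly all on Mir7018 in Hspg2. Hosts known from blood and immune cells had reads on 3 of 12: Mir7007 in Cpa3, Mir6983 in Csf1r, a macrophage receptor gene, with 4 and 2, and 1 read on the hairpin in Adam8. The hairpins in Lat, Lta, Ltb, Il10ra, Pik3cd, Grap2, Mcpt8, Nlrc5 and Bin2 had none. The hairpins in the pancreatic hosts Clps and Ctrb1 had none either. Host messengers were not measured in these libraries, so hairpin and host levels were not compared.

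The known mirtrons Mir877, Mir702 and Mir1224 are not in this range of names. Mir877, the whole 85-base intron of Abcf1, had 76 and 119 reads (25.9 ± 6.0 CPM). Its 21.6 and 30.1 CPM overlap the range of Mir6944, from 19.5 to 24.8 CPM. Mir702 in Plod3 had 39 and 47 reads (11.5 ± 0.560 CPM). Mir1224, the whole intron of Vwa5b2, had 2 and 26 (3.58 ± 4.25 CPM). Its libraries thus differed more than those of any of the 3 highest genes of the set.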

How the data were processed

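Small RNA shorter than 30 bases, selected from total RNA of gastrocnemius, was sequenced in both samples, per the labels. The authors deposited raw read counts per miRNA gene, unstranded, sense and antisense, on build mm10 with GENCODE M21, per the descriptions deposited with them. The aligner (not given in the sources used here) and any filters could not be checked, and the column roles were read from their layout and totals. Sense counts were used. Of 8152102 and 10176117 reads, 43.1% and 38.8% were sense reads on miRNA genes, and 42.6% and 46.4% aligned to several places and were counted on no gene.

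Counts were scaled to CPM here. A gene was detected at 2 CPM in both libraries. Counts of the libraries were compared by exact binomial tests (scipy 1.17.1) with Benjamini-Hochberg adjustment over genes with at least 10 counts. The procedure was checked on simulated data that carried counting error only, so the check does not cover other variation between libraries. TMM factors came from edgeR 4.0.16 in R 4.3.3, folding energies from RNAfold 2.7.2, and sequences from RefSeq tables. Hosts are same-strand GENCODE genes. Hairpin ends were measured against the shortest same-strand intron holding the hairpin, with an overhang of up to 10 bases. Named genes had at least 10 reads, at most 30 genes, plus Mir6945 and Mir7093. Others named were chosen after their values were seen. The genes and lists were chosen with earlier results of these data known. The group of neural hosts is not reported here.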

Additional observations from a re-analysis of the deposited data

How the results depend on the processing

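The 9 genes at 2 CPM or more in both libraries became 15 at 1 CPM, 1 at 5 CPM, 69 at 1 read in both, and 1 when scaled to all reads of the file. Leaving out either library gave 12 to 14. The share of reads, 0.0110%, was 0.00455% of all reads, 0.0133% with the unstranded counts and 0.00883% without Mir6944. With a minimum of 1 count, 2 genes differed between the libraries, Mir6945 and Mir6997 (adjusted exact p = 0.0469), of 30 over all genes. TMM scaling left 9 genes at 2 CPM and 1 called. Genes with a read numbered 92 to 105 in a single library and 128 under the other alternatives. Intronic genes were 189 when 1 transcript sufficed, and hairpins with an end at a splice site, 189 within 5 bases, were 188 at 0 bases, 197 within 10, and 190 over any intron, an alternative chosen after seeing the data, as was ranking per hairpin base, which left Mir6944 and Mir6945 first and second. No paired analysis was possible because both samples belong to 1 group. Counts of 1 to 3 reads, found on 73 genes, limit most levels.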

Other observations

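Some hosts carry more than 1 of these hairpins. In Ankrd52, Mir6914 had 0 and 3 reads and Mir6915 had 1 and 3. In Arap3, Mir6980 had 2 and 3 reads and Mir6981 none. In Cmip, Mir7077 had 1 read in replicate 1 and Mir7078 none. In Skiv2l, Mir6971 had 1 read in each library and Mir6970, which shares sequence with another precursor, none. In Srebf1, Mir6922 had 1 read in replicate 2 and Mir6921 none. In the gene model Gm20388, which overlaps Cpne7 and Rpl13, Mir7080 had 3 and 8 reads and Mir7079 none. These pairs were not tested, and 5 reads or fewer lie on each hairpin of the other 5 hosts.

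Antisense counts on the set were 3 reads in replicate 1 and 1 in replicate 2, over 3 genes. Among miRNA genes outside the set, 43 have a hairpin end at a splice acceptor, and 28 of these (65.1%) had a read.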
